A study of Mus musculus with 6 samples.

Results

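The genes of the route by which macrophages sense lipopolysaccharide (LPS) and switch on NF-kB comprised 38 members, taken by symbol from a list of the route, out of 16266 genes in the deposited tables. All 38 were found in both tables, and all 38 passed the count filter of the test. They were followed in mouse BMDMs, macrophages grown in culture from precursors in the marrow. The 3 knockout (KO) libraries came from cells labelled as lacking Capns1, the small regulatory subunit shared by the proteases calpain 1 and calpain 2, and 3 wild-type (WT) libraries came from cells with no stated deletion. Both groups had received LPS for 24 h, and no library without LPS was analysed here, so the induction of these genes by LPS was not measured. The title of the series places the deletion in myeloid cells, and the labels name no driver of the deletion, no strain and no age. The genotype field gives a different Capns number for each KO library, and the series design names only Capns1. Separate animals or cultures are not stated for the replicates, so a p-value here reflects nothing beyond the spread among these 6 libraries, and that spread may be technical.

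In this route LPS is handed by CD14 to a complex of TLR4 and MD-2 (encoded by Ly96), which recruits adaptor pairs at the membrane. The pair TIRAP and MyD88 assembles the IRAK kinases, TRAF6 and the TAK1 kinase complex. These activate the IKK complex, which marks the inhibitor IkB-alpha for destruction and so lets NF-kB dimers enter the nucleus. The pair TRAM (Ticam2) and TRIF (Ticam1) acts from endosomes through TRAF3, TBK1 and IKK-epsilon. NF-kB in turn drives genes that restrain the route, among them Nfkbia, Tnfaip3 and Zc3h12a.

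Sequence upstream of the members was examined first for the motif that NF-kB binds, because several members are known NF-kB targets. RefSeq promoter windows (GRCm38.p6, 250 bases before to 50 after a gene's start) were found for 28 of the 38 members. The kB consensus, a motif of 10 bases searched on both strands with overlapping matches counted, lay in a window of 10 of these 28 members (35.7%). It lay in a window of 12.4% of the 9831 tested genes with such a window and of 9.55% of all 27025 genes with one. Genes with several windows counted once if any window matched. By step, 2 of 3 NF-kB subunit genes and 3 of 4 genes of the IkB family held a match, against 0 of 3 adaptor genes and 0 of 4 genes of the IKK group. Between these lay the IRAK kinases (1 of 4), the TRAF and TAK1 genes (2 of 5) and the feedback enzymes and ubiquitin ligases (2 of 5). The genes of the receptor complex had no window. A match is a description of letters and not a measured binding site.

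The windows of 3 matching genes are given with the matches in capitals, as examples of the motif in genes of the route. Nfkbia encodes IkB-alpha (chr12:55492598-55492897, minus strand), Nfkb2 encodes p100 (chr19:46304487-46304786, plus strand, 1 of 3 windows of this gene), and Tnip1 encodes a partner of the ubiquitin editor A20 (chr11:54962891-54963190, minus strand). All are written 5′ to 3′ on the strand of the gene.
Nfkbia: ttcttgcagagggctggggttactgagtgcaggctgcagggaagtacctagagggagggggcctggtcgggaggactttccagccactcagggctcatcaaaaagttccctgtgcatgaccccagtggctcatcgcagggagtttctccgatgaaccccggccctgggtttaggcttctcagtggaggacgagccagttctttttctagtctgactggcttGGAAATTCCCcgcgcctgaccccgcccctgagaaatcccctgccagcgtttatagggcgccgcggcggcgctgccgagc
Nfkb2: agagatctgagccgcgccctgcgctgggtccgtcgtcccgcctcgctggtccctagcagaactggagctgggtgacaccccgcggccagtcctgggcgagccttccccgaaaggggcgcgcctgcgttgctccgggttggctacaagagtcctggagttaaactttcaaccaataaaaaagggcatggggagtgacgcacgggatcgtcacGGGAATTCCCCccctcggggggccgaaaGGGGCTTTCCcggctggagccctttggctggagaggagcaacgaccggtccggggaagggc
Tnip1: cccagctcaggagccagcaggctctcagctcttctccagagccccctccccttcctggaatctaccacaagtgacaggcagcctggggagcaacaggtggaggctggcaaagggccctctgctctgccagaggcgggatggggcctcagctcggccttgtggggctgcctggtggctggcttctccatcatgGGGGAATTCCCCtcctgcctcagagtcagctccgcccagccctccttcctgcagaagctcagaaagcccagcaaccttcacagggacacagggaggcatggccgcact
In Nfkbia the match began at base -29 from the start. In Nfkb2 overlapping matches began at bases -39 and -38 and a further one at base -11, and in Tnip1 overlapping matches began at bases -58, -57 and -56.

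For comparison the windows of 2 members that differed between the groups in opposite directions are shown. Irak4 encodes the first kinase of the complex on MyD88 (chr15:94543410-94543709, plus strand), and Irak3 encodes IRAK-M, which restrains that complex (chr10:120201548-120201847, minus strand, 1 of 2 windows of this gene). They hold no capitals because no kB match was found in these letters, which says nothing of the factor itself.
Irak4: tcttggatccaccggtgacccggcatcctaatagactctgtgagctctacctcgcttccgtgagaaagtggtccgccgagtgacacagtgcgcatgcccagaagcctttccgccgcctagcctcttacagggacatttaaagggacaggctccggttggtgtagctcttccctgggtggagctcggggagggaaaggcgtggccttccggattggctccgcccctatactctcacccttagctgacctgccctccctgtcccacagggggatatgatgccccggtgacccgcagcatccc
Irak3: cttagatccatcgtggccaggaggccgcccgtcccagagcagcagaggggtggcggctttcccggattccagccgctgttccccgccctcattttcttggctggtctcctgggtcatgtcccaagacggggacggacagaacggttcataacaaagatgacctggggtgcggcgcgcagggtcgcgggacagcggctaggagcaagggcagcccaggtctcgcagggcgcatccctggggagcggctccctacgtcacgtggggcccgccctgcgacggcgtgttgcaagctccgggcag

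The libraries held 32631163 to 40913819 counts. Capns1 had 298 to 370 counts in the KO libraries and 17055 to 21331 in the WT libraries, which is -5.73 ± 0.12 SE as log2 fold change (edgeR, adjusted p = 1.77e-10), so each KO library carried the loss whatever its genotype field says. Macrophage markers had counts in every library, from Mrc1 at 16.8 to 23.2 FPKM to Lyz2 at 22180 to 30167. In edgeR 0 of 10 were called. Csf1r was the 1 with an unadjusted p under 0.05 (log2 fold change -0.35, adjusted p = 0.0600), and its groups did not overlap. The summed level of the 10 was 25422 to 29570 FPKM in KO and 25972 to 33416 in WT, most of it Lyz2. For stromal cells and fibroblasts, 5 of 9 tested markers rose in KO and 0 fell, with a summed level of 81.0 to 93.0 FPKM in KO and 35.4 to 40.6 in WT. Of 10 markers of neutrophils and their precursors, 2 were higher and 3 lower in KO (summed 1753 to 2166 FPKM in KO and 1404 to 1959 in WT). Of 7 dendritic cell markers 1 was tested, and it had neither an adjusted nor an unadjusted p under 0.05 (0.190 to 0.275 FPKM summed in KO and 0.239 to 0.448 in WT), with Xcr1 at no more than 3 counts in any library. Among T and NK cell markers, 4 of 7 were present, of which 1 was tested and was lower in KO (0.445 to 1.00 FPKM summed in KO and 2.23 to 2.90 in WT), with Cd3d and Cd3g at no more than 3 counts. Of 4 tested endothelial markers 0 were higher and 1 was lower in KO (4.32 to 5.52 FPKM summed in KO and 3.59 to 4.93 in WT). The part of these markers in the values of the signalling genes was not tested. In the second principal component, with 15.9% of the variance, KO replicate 2 (-25.5) and WT replicate 3 (23.2) lay far from the remaining KO libraries (12.6 and 10.4) and WT libraries (-8.21 and -12.4). Results that rest on them are given with and without them.

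Levels of different members were compared as deposited FPKM, which scales reads by gene length and library total. They spanned a wide range, with the ends of the order set by Cd14 and Tab3. Cd14, the LPS co-receptor, averaged 389 ± 13.8 FPKM in KO and 487 ± 31.1 in WT (SD, n = 3 each). Tab3, a subunit of the TAK1 complex, averaged 0.628 ± 0.0627 FPKM in KO and 0.594 ± 0.0977 in WT. Nfkbia followed Cd14, at 192 ± 22.6 FPKM in KO and 183 ± 10.8 in WT. Next came Ikbke and Myd88, whose order differed between the groups. Ikbke ranked 4 in KO (81.6 ± 8.21 FPKM) and 3 in WT (109 ± 5.92), and Myd88 ranked 3 in KO (96.2 ± 8.89) and 4 in WT (98.7 ± 7.47). In WT the values of these 2 neighbours came close, at 103 to 115 FPKM for Ikbke and 90.04 to 103 for Myd88. The receptor itself was far down the order: Tlr4 ranked 30 of 38 in both groups, and its partner Ly96 ranked 16 in KO and 17 in WT. Ranks depend on the length used for each gene, which the values imply to be 8411 bases for Tlr4. With a shorter length its level would be higher.

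**Figure D1:**
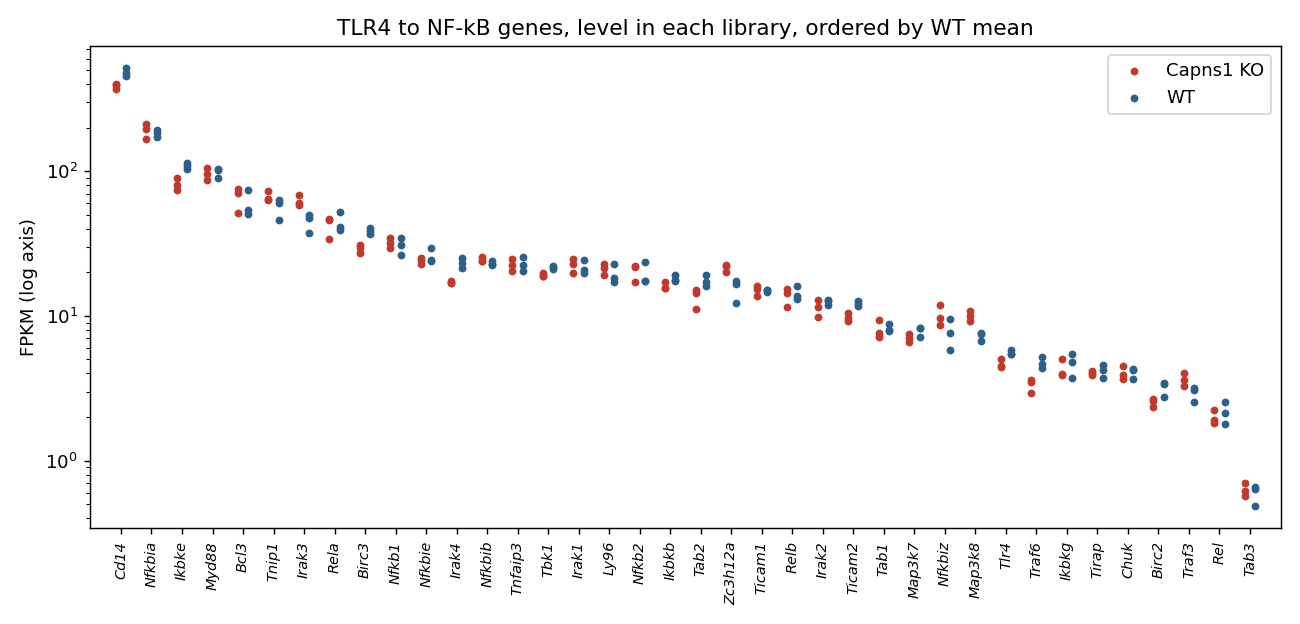
FPKM of the 38 members (log axis) in each of 3 KO and 3 WT libraries, 1 point per library, ordered by the WT mean. Cd14 stands highest (389 FPKM on average in KO and 487 in WT) and Tab3 lowest (0.628 in KO and 0.594 in WT).

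In the comparison of KO with WT, 3 members rose and 6 fell in edgeR's quasi-likelihood test with Benjamini-Hochberg adjustment over 12219 genes (adjusted p under 0.05, termed called). That is 9 of 38, against 14.6% of all tested genes called. In the same test 8.44% of all tested genes were called higher and 6.21% lower. With a trend over gene length removed, 3 members rose and 8 fell, and over all genes 994 were called higher and 1352 lower, against 1031 and 759 without that step. That step also lowered the median log2 fold change of all tested genes to -0.08, against -0.01 without it. The changes were small: log2 fold changes of the members ran from -0.52 to 0.46, and 0 members differed by more than 1.5-fold, whereas 9.45% of tested genes were called and passed that size. The median log2 fold change was -0.06 over the members and -0.01 over all tested genes. The groups were fully separated for 16 of the 38 members (42.1%), against 33.7% of all tested genes. The rises were Irak3, Map3k8 and Zc3h12a, and the falls were Cd14, Ticam2, Irak4, Traf6, Ikbke and Birc3. Of the called members, 6 had a promoter window and 0 of these held a kB match, against 10 of 22 members that were not called. Among all tested genes with a window the share was 12.4%. Cd14, Ticam2 and Map3k8 had no window, and 6 genes are too few to compare these shares. In these bulk libraries fewer cells of a type and less RNA per cell cannot be told apart.

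**Figure D2:**
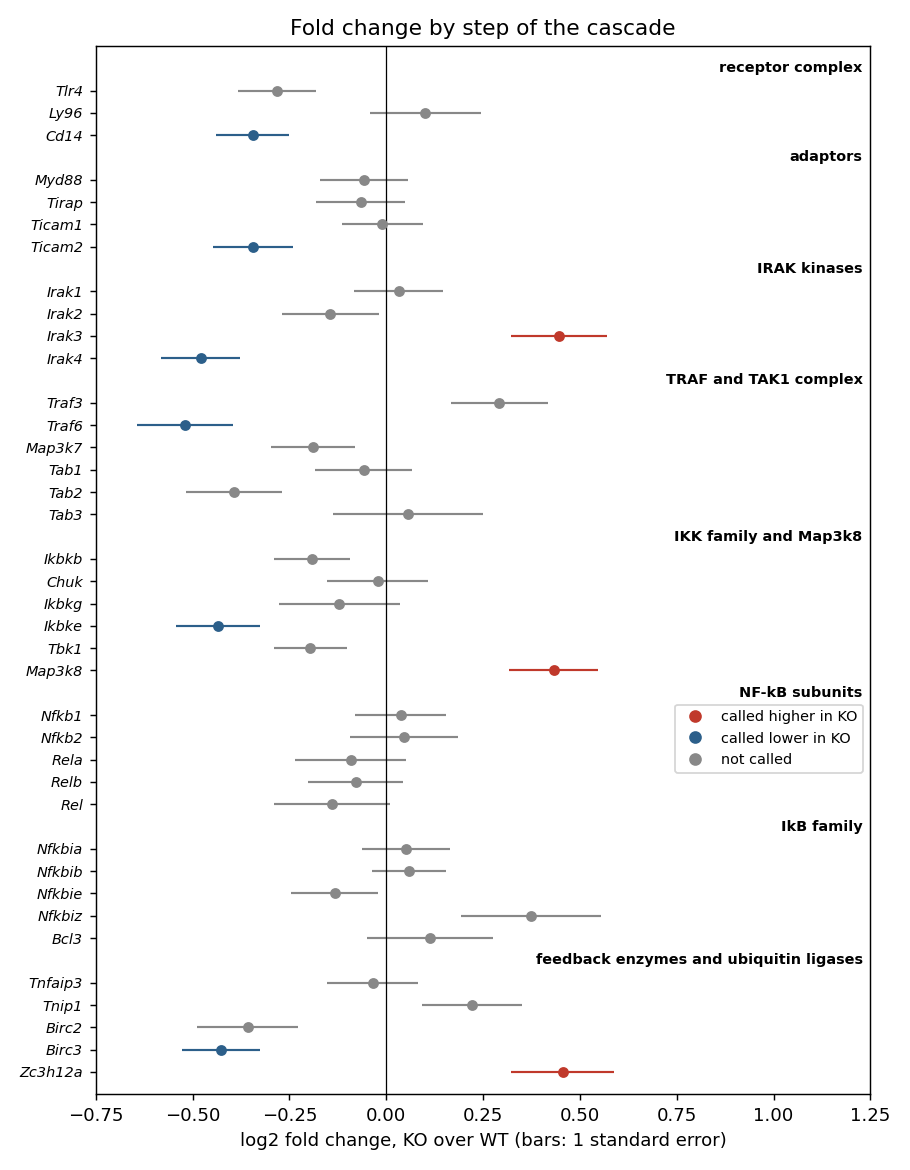
Log2 fold change of KO over WT for the 38 members, grouped by step of the cascade, with bars of 1 standard error. Red points mark the 3 members called higher in KO, blue points the 6 called lower, and grey points the 29 not called. The grey points include every NF-kB subunit and every member of the IkB family (5 genes each, against 14.6% of all tested genes called).

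At the receptor complex 1 of 3 genes fell. Cd14 stood at 393, 401 and 374 FPKM in the KO libraries, against 458, 520.0 and 483 in the WT libraries. Every KO library was below every WT library, and the fall was 21.2% (log2 fold change -0.34 ± 0.09 SE, adjusted p = 0.0304). Tlr4, the signalling receptor, had 4.48, 4.46 and 5.06 FPKM in KO, against 5.83, 5.46 and 5.47 in WT. Its groups did not overlap either, but it was not called (log2 fold change -0.28 ± 0.10 SE, adjusted p = 0.0844). With the gene length trend removed it passed the threshold at a log2 fold change of -0.35 (adjusted p = 0.0301), in a setting where the median of all genes was also lower. Ly96, which encodes the LPS-binding partner of TLR4, had 22.7, 21.5 and 19.3 FPKM in KO and 22.7, 18.4 and 17.3 in WT. These values overlapped (log2 fold change 0.10, adjusted p = 0.707).

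Among the 4 adaptor genes 1 fell. Ticam2, encoding TRAM, the bridge that brings TRIF to TLR4, had 10.4, 9.61 and 9.29 FPKM in KO, against 12.2, 12.8 and 11.7 in WT. The groups did not overlap (log2 fold change -0.34 ± 0.10 SE, adjusted p = 0.0440). In 12 of 18 alternatives Ticam2 missed the threshold, and dropping any single library was enough (adjusted p of 0.0600 to 0.168). Ticam2 also shares 15.7% of its 32-base words with other genes, mostly Tmed7 at the same locus, so its value is uncertain. Tmed7 itself had a log2 fold change of 0.05 (adjusted p = 0.788). Myd88, the adaptor that assembles the IRAK kinases, had 95.7, 105 and 87.6 FPKM in KO and 103, 90.04 and 103 in WT. Of its exonic bases 11.3% lie on the strand opposite to exons of Acaa1a, which had 105 ± 6.58 FPKM in KO and 109 ± 7.49 in WT, so part of the reads may belong to either gene. Ticam1, encoding TRIF, had 16.2, 15.3 and 13.8 FPKM in KO and 14.6, 15.2 and 15.2 in WT. Myd88 and Ticam1 both overlapped between the groups, with log2 fold changes of -0.06 and -0.01 (adjusted p = 0.798 and 0.965). Tirap, the membrane adaptor for MyD88, had a log2 fold change of -0.07 (adjusted p = 0.768), and shares 12.1% of its words with other genes.

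The IRAK kinases held a call in each direction. Irak4 (chromosome 15 at 94543613 to 94568317, GRCm38) encodes the kinase that starts the phosphorylation chain on MyD88. It stood at 17.4, 16.8 and 16.9 FPKM in KO, against 23.3, 21.5 and 25.3 in WT. The KO libraries lay close together and all below the WT libraries, and the level fell by 28.2% (log2 fold change -0.48 ± 0.10 SE, adjusted p = 0.00904). Irak4 was the 1 member called in all 18 alternatives, with adjusted p of 0.0112 to 0.0458 when 1 library was left out. Of its exonic bases 7.87% lie on the strand opposite to exons of Twf1, whose log2 fold change was 0.05 (adjusted p = 0.829), and reads of that stretch may belong to either gene. Irak4 also shares 6.62% of its words with other genes. Irak3 (chromosome 10 at 120141648 to 120202130) encodes IRAK-M, a kinase-like protein that limits the same complex. It had 68.5, 59.0 and 60.4 FPKM in KO, against 47.7, 37.7 and 50.1 in WT. Every KO library was above every WT library (log2 fold change 0.45 ± 0.12 SE, adjusted p = 0.0314). On the opposite strand, exons of Gm47009 and Tmbim4 cover 5.98% of its exonic bases. It is not stated whether counting used strand, so reads of that stretch may belong to Irak3 or to these genes. Tmbim4 had a log2 fold change of 0.17 (adjusted p = 0.319). Irak1 and Irak2, the kinases that act after IRAK4, were not called, with log2 fold changes of 0.03 and -0.14 (adjusted p = 0.899 and 0.505).

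Of the TRAF and TAK1 genes 1 of 6 fell, the ubiquitin ligase Traf6 (chromosome 2 at 101678420 to 101701668), which links the IRAK kinases to TAK1. It had 2.95, 3.58 and 3.48 FPKM in KO, against 5.17, 4.62 and 4.37 in WT. All KO values were below all WT values, and its fall of 30.3% was the largest among the called members (log2 fold change -0.52 ± 0.12 SE, adjusted p = 0.0159). Tab2, an adaptor that ties TAK1 to ubiquitin chains, had 14.4, 11.1 and 15.1 FPKM in KO, against 17.1, 16.0 and 19.3 in WT. Its groups did not overlap, and its log2 fold change of -0.39 ± 0.12 SE lay just outside the threshold (adjusted p = 0.0546). Tab2 was called in 5 of 18 alternatives, among them DESeq2 (adjusted p = 0.0305), limma-voom (0.0496) and edgeR with no filter on low counts (0.0416). Map3k7, which encodes TAK1 itself, had 7.48, 7.06 and 6.57 FPKM in KO and 7.15, 8.29 and 8.24 in WT. These overlapped (log2 fold change -0.19, adjusted p = 0.290). Traf3, the branch point towards TBK1, had a log2 fold change of 0.29 (adjusted p = 0.154) with groups that did not overlap. The TAK1 partners Tab1 and Tab3 had -0.06 and 0.06.

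The IKK group had 1 rise and 1 fall among 6 genes, and the calls fell outside the core IKK complex. Ikbke (chromosome 1 at 131254600 to 131279601) encodes IKK-epsilon, a kinase of the interferon branch. It had 80.03, 90.4 and 74.2 FPKM in KO, against 115, 108 and 103 in WT. The groups did not overlap (log2 fold change -0.44 ± 0.11 SE, adjusted p = 0.0199). Its close relative Tbk1 had 19.98, 19.0 and 19.0 FPKM in KO and 22.2, 21.2 and 21.9 in WT. Those groups did not overlap either, but the smaller log2 fold change of -0.20 ± 0.09 SE was not called (adjusted p = 0.197). Whether Ikbke and Tbk1 differ in their change was not tested. Map3k8 encodes TPL2, a kinase held by p105 and released on LPS to start the ERK cascade. It had 10.7, 10.0 and 9.21 FPKM in KO, against 7.52, 7.68 and 6.69 in WT, with every KO library above every WT library (log2 fold change 0.43 ± 0.11 SE, adjusted p = 0.0267).

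The 3 genes of the core IKK complex were not called. Ikbkb, its main catalytic subunit in this route, had 17.2, 15.5 and 15.7 FPKM in KO and 17.7, 17.4 and 19.2 in WT. Its groups came close without overlapping (log2 fold change -0.19 ± 0.10 SE, adjusted p = 0.232). Chuk, which encodes IKK-alpha, had -0.02 (adjusted p = 0.938). The scaffold Ikbkg (NEMO) had -0.12 ± 0.16 SE (adjusted p = 0.672) and varied inside both groups. Its level was 3.998, 5.07 and 3.93 FPKM in KO and 5.46, 4.81 and 3.70 in WT. It was called as lower without KO replicate 2 and WT replicate 3 together (log2 fold change -0.41, adjusted p = 0.00708), in a fit that called 26% of all tested genes. Ikbkg shares 5.72% of its words with other genes, mostly G6pdx. Of its exonic bases 5.15% lie on the strand opposite to exons of G6pdx, so reads of that stretch may belong to either gene.

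None of the 5 NF-kB subunit genes was called in edgeR with 6 libraries, and 0 of 5 had an unadjusted p under 0.05. DESeq2 and limma called 0 as well. Of all 12219 tested genes 14.6% were called in edgeR, and 3445 had an unadjusted p under 0.05. A step of 5 genes is too few to compare with these shares. Rela, encoding the p65 subunit that carries the main activation domain, had 46.6, 33.9 and 46.2 FPKM in KO and 41.3, 39.1 and 52.2 in WT. The values overlapped, with KO replicate 2 lowest and WT replicate 3 highest (log2 fold change -0.09 ± 0.14 SE, adjusted p = 0.740). Nfkb1, encoding p105 and its product p50, had 34.5, 29.6 and 32.04 FPKM in KO and 30.9, 26.5 and 34.7 in WT (log2 fold change 0.04 ± 0.12 SE, adjusted p = 0.882). Nfkb2, encoding p100 of the noncanonical arm, and its partner Relb had log2 fold changes of 0.05 and -0.08 (adjusted p = 0.874 and 0.736), and Nfkb2 shares 16.2% of its words with other genes. Rel, the c-Rel subunit gene, had -0.14 and the lowest level of the 5 (1.98 ± 0.217 FPKM in KO and 2.15 ± 0.376 in WT). Without KO replicate 2 and WT replicate 3 together, Nfkb2 was called as higher (log2 fold change 0.30, adjusted p = 0.0181), in a fit that called 26% of all tested genes.

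The IkB family, whose members hold NF-kB dimers in the cytoplasm or steer them on DNA, likewise held 0 calls among 5 genes in edgeR. In this family 0 genes had an unadjusted p under 0.05, and DESeq2 and limma called 0. Against 14.6% of all tested genes called, 5 genes are again too few to compare. Nfkbia had 195, 213 and 168 FPKM in KO and 193, 184 and 172 in WT. The WT values lay inside the range of the KO values (log2 fold change 0.05 ± 0.11 SE, adjusted p = 0.824). Nfkbib and Nfkbie, which encode the other cytoplasmic inhibitors of this kind, had 0.06 and -0.13 (adjusted p = 0.748 and 0.487), and Nfkbib shares 13.9% of its words with other genes. Nfkbiz, encoding the nuclear protein IkB-zeta, had 9.71, 11.8 and 8.59 FPKM in KO and 9.54, 5.83 and 7.61 in WT. These overlapped and had the widest spread in WT of the members, a coefficient of variation of 24.2% (log2 fold change 0.37 ± 0.18 SE, adjusted p = 0.203). Bcl3, a nuclear partner of p50, had 75.1, 51.5 and 70.9 FPKM in KO and 54.4, 50.8 and 73.9 in WT (log2 fold change 0.11 ± 0.16 SE, adjusted p = 0.710). Without KO replicate 2 and WT replicate 3 together it was called as higher (log2 fold change 0.43, adjusted p = 0.00219), in the fit that called 26% of all tested genes.

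Among the feedback enzymes and ubiquitin ligases 1 of 5 rose and 1 fell. Zc3h12a (chromosome 4 at 125118414 to 125127881) encodes regnase-1, a ribonuclease that degrades cytokine mRNAs. It had 22.4, 20.2 and 22.0 FPKM in KO, against 16.7, 12.3 and 17.3 in WT. Every KO library was above every WT library, a rise of 37.1% (log2 fold change 0.46 ± 0.13 SE, adjusted p = 0.0417). Birc3 (chromosome 9 at 7847468 to 7873205) encodes cIAP2, a ubiquitin ligase of the TRAF complexes. It had 29.5, 31.0 and 27.1 FPKM in KO, against 38.7, 40.7 and 36.8 in WT (log2 fold change -0.43 ± 0.10 SE, adjusted p = 0.0159). The groups did not overlap, but Birc3 shares 11.3% of its words with other genes, chiefly Gm7019, so its value is uncertain. Its neighbour and paralog Birc2, encoding cIAP1, had 2.66, 2.58 and 2.35 FPKM in KO and 3.44, 3.41 and 2.75 in WT. Those groups did not overlap, and the log2 fold change of -0.36 ± 0.13 SE was not called (adjusted p = 0.0925). Tnfaip3, which encodes A20, had 24.7, 22.6 and 20.5 FPKM in KO and 25.6, 20.4 and 22.6 in WT (log2 fold change -0.04 ± 0.12 SE, adjusted p = 0.889). Its partner Tnip1 had 72.8, 64.8 and 63.2 FPKM in KO and 60.3, 46.1 and 63.1 in WT. The groups of Tnip1 came close without overlapping (log2 fold change 0.22 ± 0.13 SE, adjusted p = 0.293).

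**Figure D3:**
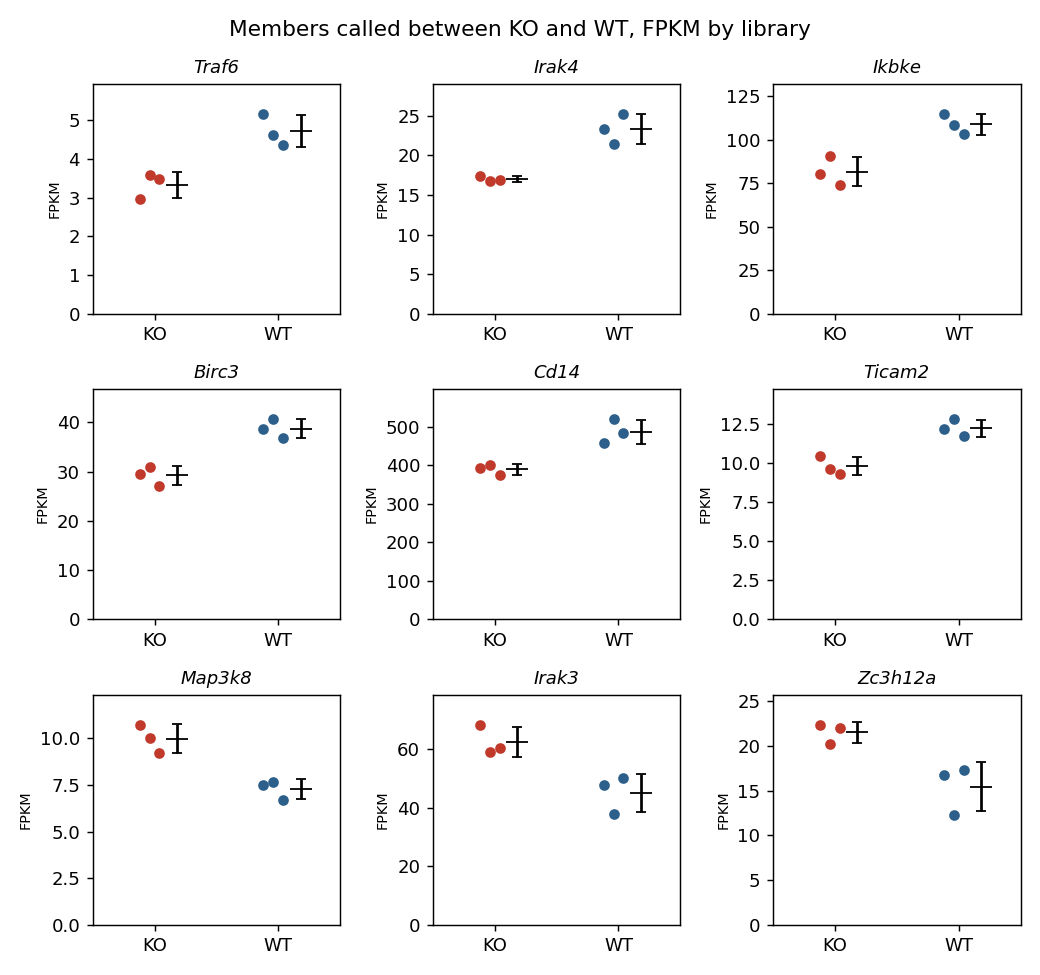
FPKM of the 9 called members in each of 3 KO libraries (red) and 3 WT libraries (blue), with the mean and SD of each group beside the points and axes from 0. In all 9 panels the groups do not overlap, and the 3 members in the bottom row, Map3k8, Irak3 and Zc3h12a, are the ones higher in KO.

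The calls depended on which library was left out, while the sizes of the changes moved less. Members called numbered 1 without KO replicate 1, 2 without KO replicate 3, 1 without WT replicate 1, and 3 without WT replicate 2, but 8 without KO replicate 2 and 6 without WT replicate 3. Over all tested genes the share called was 8.99% to 9.84% in the first 4 of these and 14.1% and 13.7% in the other two. Irak4 kept its call in each of the 6. The remaining called members lost it at least 3 times: Traf6 and Map3k8 3 times each, Irak3, Ikbke, Birc3 and Zc3h12a 4 times each, Cd14 5 times and Ticam2 6 times. The highest adjusted p over these 6 fits was 0.0928 for Traf6, 0.104 for Map3k8, 0.109 for Irak3, 0.105 for Ikbke, 0.0868 for Birc3, 0.109 for Zc3h12a and 0.133 for Cd14. All 9 kept their direction in each. The log2 fold change of Traf6 ran from -0.59 to -0.42 over these fits, that of Ikbke from -0.53 to -0.35 and that of Zc3h12a from 0.32 to 0.56.

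**Figure D4:**
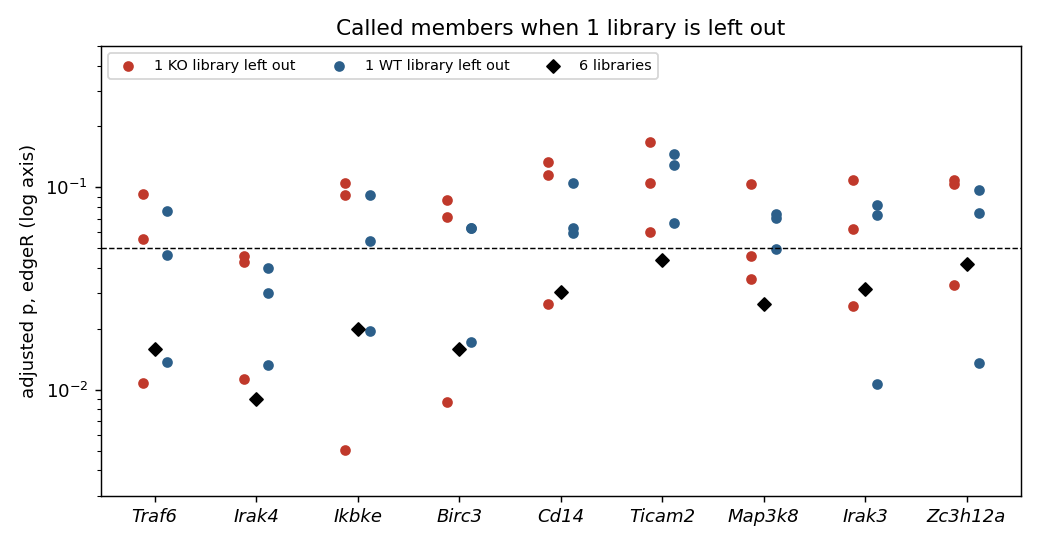
Adjusted p in edgeR (log axis) of the 9 called members with 6 libraries (black diamonds) and with 1 KO library (red) or 1 WT library (blue) left out. The dashed line marks 0.05, and only the points of Irak4 all lie under it, up to 0.0458.

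Inside the groups, KO replicate 2 and WT replicate 3 stood at the ends for part of the members, as they did for part of all tested genes. KO replicate 2 was the lowest KO library and WT replicate 3 the highest WT library for 14 of 38 members (36.8%). The same held for 26.1% of tested genes with counts in every library. These 14 included Rela, Relb, Nfkb1, Nfkb2, Nfkbie and Bcl3. For Bcl3 the log2 ratio of KO replicate 2 to the mean of the other KO libraries was -0.50, and that of WT replicate 3 to the mean of the other WT libraries was 0.49. For Rela these ratios were -0.45 and 0.38, and for Nfkb2 -0.35 and 0.43. The opposite pattern held for 6 members (Traf6, Chuk, Ikbkg, Ikbke, Nfkbia and Birc3), which is 15.8%, against 23.6% of tested genes. Ikbkg had ratios of 0.36 and -0.47. Gene length moved with these libraries. With tested genes in 3 equal bins of length, the longest bin deviated from the mean of all 6 libraries by a median of -0.11 in KO replicate 2 and 0.10 in WT replicate 3 (log2). The shortest bin deviated by 0.13 in KO replicate 2 and -0.09 in WT replicate 3. Bcl3 (1835 bases, shortest bin) and Ikbkg (9550 bases, longest bin) went the opposite way to their bins. Nfkb2 (10990 bases, longest bin) went the same way as its bin, and Rela (2870 bases) was in the middle bin. The part of length in the spread of the members was not tested. With the length trend removed, the 9 calls were kept and Tlr4 and Tab2 were added, with the median of all genes lowered as given above.

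Without these 2 libraries, 6 members rose and 8 fell, against 3186 of 12275 tested genes called (26%). The 9 calls were among the 14, and Traf3, Nfkb2 and Bcl3 (higher) and Ikbkg and Birc2 (lower) were added. In this subset the KO and WT libraries also lie on opposite sides of the second principal component (12.6 and 10.4 in KO, -8.21 and -12.4 in WT), so genotype and whatever sets that axis cannot be told apart there.

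**Figure D5:**
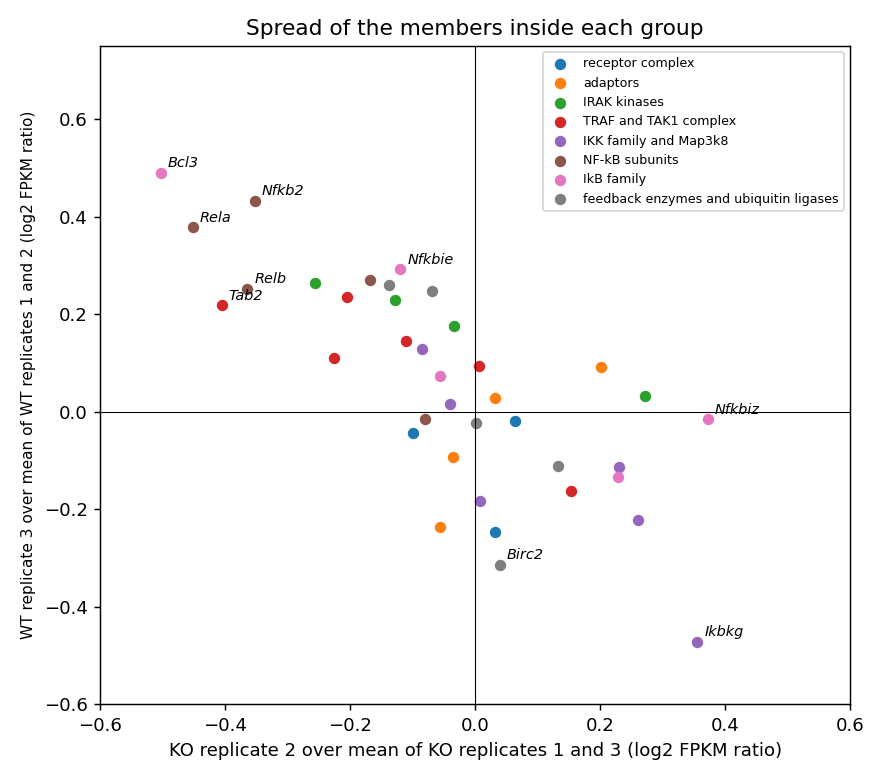
For each of the 38 members, the log2 FPKM ratio of KO replicate 2 to the mean of the other KO libraries (x axis) and of WT replicate 3 to the mean of the other WT libraries (y axis), coloured by step. Bcl3 (-0.50 and 0.49), Rela (-0.45 and 0.38) and Nfkb2 (-0.35 and 0.43) lie at the upper left and Ikbkg (0.36 and -0.47) at the lower right.

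Other genes of the route were counted from lists. Of 43 further receptor partners, ubiquitin enzymes, adaptors and kinases, 1 rose and 5 fell, which is 14.0%, against the 14.6% called among all tested genes, with a median log2 fold change of -0.08. Hsp90b1, the chaperone gp96 that folds Toll-like receptors, rose to 233 ± 16.2 FPKM in KO, against 164 ± 16.3 in WT (log2 fold change 0.48, adjusted p = 0.0123). The falls were Scimp (-1.74, adjusted p = 0.00454), a membrane adaptor for Toll-like receptors, Tifa (-0.45, adjusted p = 0.00905), which activates TRAF6, Itch (-0.41, adjusted p = 0.0199), a ligase that works with A20, Ly86 (-0.45, adjusted p = 0.0202), which encodes MD-1, the partner of the TLR4-like receptor CD180, and Sigirr (-0.995, adjusted p = 0.0339), an inhibitory receptor. Scimp and Sigirr were low, at 0.717 ± 0.110 and 0.834 ± 0.309 FPKM in KO, against 2.36 ± 0.831 and 1.63 ± 0.165 in WT. Of 18 kinases of the MAP kinase arm 1 rose, Mapkapk3 (0.45, adjusted p = 0.0205), and 1 fell, Mapk3, which encodes ERK1 (-0.31, adjusted p = 0.0396), with a median of -0.06. That is 11.1% called, against 14.6% of all tested genes.

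Of 33 NF-kB output genes 28 were tested, of which 6 rose and 1 fell, with a median log2 fold change of -0.02. That is 25.0% called, against 14.6% of all tested genes. Ptgs2, the inducible cyclooxygenase, rose to 1.32 ± 0.186 FPKM in KO, against 0.323 ± 0.109 in WT (log2 fold change 2.01, adjusted p = 3.97e-04). The neutrophil chemokine Cxcl1 (1.59, adjusted p = 6.09e-04), the iron-carrier binder Lcn2 (1.14, adjusted p = 0.00104) and the monocyte chemokine Ccl2 (0.87, adjusted p = 0.0137) rose too. Csf3 and Bcl2a1b were also called higher, but Csf3 had 0 and 1 counts in WT replicates 2 and 3, and Bcl2a1b, which the naming rule leaves out and which was chosen after its value was seen, belongs to a family of near-identical copies. The interferon-linked chemokine Cxcl10 fell to 5.28 ± 1.52 FPKM in KO, against 9.96 ± 1.18 in WT (-0.93, adjusted p = 0.0107). Beside these rises, 5 of 9 tested stromal markers were called higher in KO, as given above, against 8.44% of all tested genes. The part of stromal cells in the values of the output genes was not tested.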

How the data were processed

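Read counts per gene and FPKM values were deposited by the authors for 6 libraries and 16266 genes. Per the submitters' processing notes, tools were fastp, HISAT2 and HTSeq on mm10. Their versions, and whether counting used strand, are not stated. Libraries were strand-specific, per the labels' protocols. The deposited FPKM equalled the count over the column total and 1 length per gene, to a tolerance of 1% in 99.99% of the values that rest on 10 or more counts.

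Counts were tested with edgeR 4.0.16 (R 4.3.3): genes passing filterByExpr were scaled by TMM and compared by group with the quasi-likelihood test, with p-values adjusted over 12219 genes (Benjamini-Hochberg). Log2 fold changes are KO over WT, and their standard error is the size over the square root of F. Means ± SD are of deposited FPKM. Total counts were 32631163 to 40913819, and 135 to 34231 per member and library. Alternatives used DESeq2 1.42.0 and limma 3.58.1 (pseudocounts of 1 and 0.1 on FPKM), other scalings and filters, a gene length trend removed, a replicate block and fewer libraries.

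The members, their steps, the gene and marker lists and the subset without 2 libraries were chosen with earlier results of these data known. Named genes were Capns1, all members, and up to 5 called genes per direction of each list by smallest adjusted p. Some markers, picked after their values were seen, and genes that overlap members are named besides. Shared 32-base words were counted in GENCODE M21 transcripts. Gene positions come from the RefSeq annotation of GRCm38.p6, to which mm10 corresponds.

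The fits were tested on simulated data with known changes. One marker list is not reported here.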

Additional observations from a re-analysis of the deposited data

How the results depend on the processing

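Over 18 alternatives, the 9 called members gave 162 values, of which 123 stayed called and 0 changed sign. The 29 members not called gave 13 called values. Of their 521 values, 41 took the other sign, all for members whose log2 fold change in the main edgeR fit lay within 1 SE of 0. The values that changed sign were not held to that limit, and those of Rela ran from -0.16 to 0.17 over the alternatives. Leaving out 1 library gave 1 to 8 members called (0 to 3 higher, 1 to 5 lower) and 1119 to 1741 genes called in all, with 359 to 742 lower in KO. Without KO replicate 2 and WT replicate 3 together, 14 members were called, 6 of them higher, and 3186 genes in all, 1681 higher and 1505 lower. Genes called lower numbered 1352 with a gene length trend removed. Other scalings, filters and tools gave 8 to 10 members called, 3 of them higher in each. Log2(FPKM + pseudocount) understates the change of low genes.

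With replicate number as a block, 12 members were called, 3 higher and 9 lower, and 2526 genes in all, 1164 of them lower. Tlr4, Tab2 and Birc2 were the additions. The numbers share no stated animal or day. Deviations of same-numbered libraries correlated at -0.10, 0.23 and 0.18, so they were not taken as pairs, and not every library correlated best with its own number.

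Depth limits the members little, since the lowest count was 135 (Tab3). The spread between libraries limits changes under 1.5-fold, where every member lay.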
